A study of Neurospora crassa with 2 samples.

Results

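The genes described here encode the machinery that brings proteins into mitochondria. They were chosen by gene symbol, as the rows of the deposited table whose symbol starts with tom, tim, sam, pam, mdm, mmm or mim followed by a number. This rule took 22 of the 10559 genes. No sam or pam symbol was found (0 genes), so the 22 members were 7 tom, 11 tim, 2 mdm, 1 mmm and 1 mim genes. By symbol alone, the tim genes are called inner membrane genes below and all the others outer membrane genes. The group had been picked from the same measurements, after the tom genes were seen to have a high ratio between the time points, so the ratios below are a description and were not tested.

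The mRNA came from hyphae of wild type (WT) Neurospora crassa, a filamentous fungus, grown in glucose medium and kept in constant darkness for 20 hr (DD20) or 12 hr (DD12). The WT strain of the study carries the bd allele, and both samples share it. PolyA RNA was sequenced, and the table gives 1 column of RPKM values (reads scaled by gene length and by library size) for each time point. The study describes duplicate pooled RNA samples per time point, and whether a column is 1 of them or both combined is not given in the sources used here. With 1 column per time point, no difference below has a replicate check, and in such bulk samples fewer cells of a type and less RNA per cell cannot be told apart.

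Nearly all mitochondrial proteins are made in the cytosol and imported. The TOM complex of the outer membrane holds the entry channel, Tom40, and receptors that recognise targeting signals. From there, proteins with a cleavable presequence go through the TIM23 complex of the inner membrane and are pulled into the matrix by a chaperone motor, carrier proteins are inserted by the TIM22 complex with the help of small Tim chaperones in the intermembrane space, and barrel-shaped outer membrane proteins are assembled by the SAM (TOB) complex. Much of this machinery was first described in Neurospora and baker's yeast, and RefSeq still lists the older Neurospora names mom38 for tom40, mom19 for tom20, mom22 for tom22, mom72 for tom70 and mom7 for tom7.

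The steps between RPKM values gave library totals of 29960356 reads at DD20 and 30712952 reads at DD12. The import genes were well covered, with 161 to 5098 reads per gene at DD20 and 201 to 3756 at DD12. For 7 of them several gene lengths fitted, and the reads given are those at the shortest of at least 300 nt. Longer fitting lengths would give more reads. The difference between the time points is given as a log2 ratio, the log2 of DD20 over DD12 after 1 was added to each RPKM value. Genes counted as expressed if their RPKM averaged 1 or more, as it did for all 22 import genes and for 7414 genes in all. The median log2 ratio of the expressed genes was 0.15 and their quartiles were -0.11 and 0.36. The 10 most abundant genes of the table took 15.0% of the summed RPKM at DD20 and 22.9% at DD12. Genes taken as markers of conidia, the asexual spores, were lower at DD20 for 5 of the 6 that reached a mean RPKM of 1. Among all expressed genes, 2505 of 7414 had a log2 ratio below 0. The log2 ratios of the 5 markers ran from -1.49 for con-6 to -0.26 for eas, and that of the exception, fl, was 0.14. The summed level of the 8 conidial markers in the table was 7755 RPKM at DD20 and 9333 RPKM at DD12, mostly from eas, and none was at 0. Whether these markers follow the amount of conidia in the samples was not tested, nor was their part in the ratios of the import genes.

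Most import genes had more mRNA at DD20 than at DD12. The log2 ratio was above 0 for 20 of the 22 genes, against 66.2% of all expressed genes, and above the all-gene median of 0.15 for 19. With other scalings of the libraries 19 or 18 genes lay above 0, because tim14 or both tim14 and tim22 passed below it. The 66.2% belongs to the RPKM values as deposited, and no such share is given for the other scalings. There the all-gene median was 0 with ratios centred on it and -0.028 with libraries rescaled without the 10 most abundant genes. With each, 19 of the 22 lay above that median. In the values as deposited the median of the 22 was 0.43. The highest ratios were those of tim54, tom70 and tom40, and the ratios below 0 were those of mdm12 and mim1. By a limit of 1.5-fold, 7 import genes were higher at DD20 (tom40, tom70, tom20, tom7, tim17, tim50 and tim54), against 8.40% of all expressed genes, and 0 were lower, against 6.66%. By 2-fold, 0 were higher, against 0.742%, and 0 were lower, against 2.33%. The count of 7 depended on scaling. Only tom70 and tim54 passed 1.5-fold when the median of all genes was set to 0. With libraries rescaled without the 10 most abundant genes, only tim54 did. The share of 8.40% belongs to the RPKM values as deposited, and no share is given for these other scalings. The members' summed RPKM was 1357 at DD20 and 980.1 at DD12, a ratio of 1.38, against 1.04 for the whole table.

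**Figure D1:**
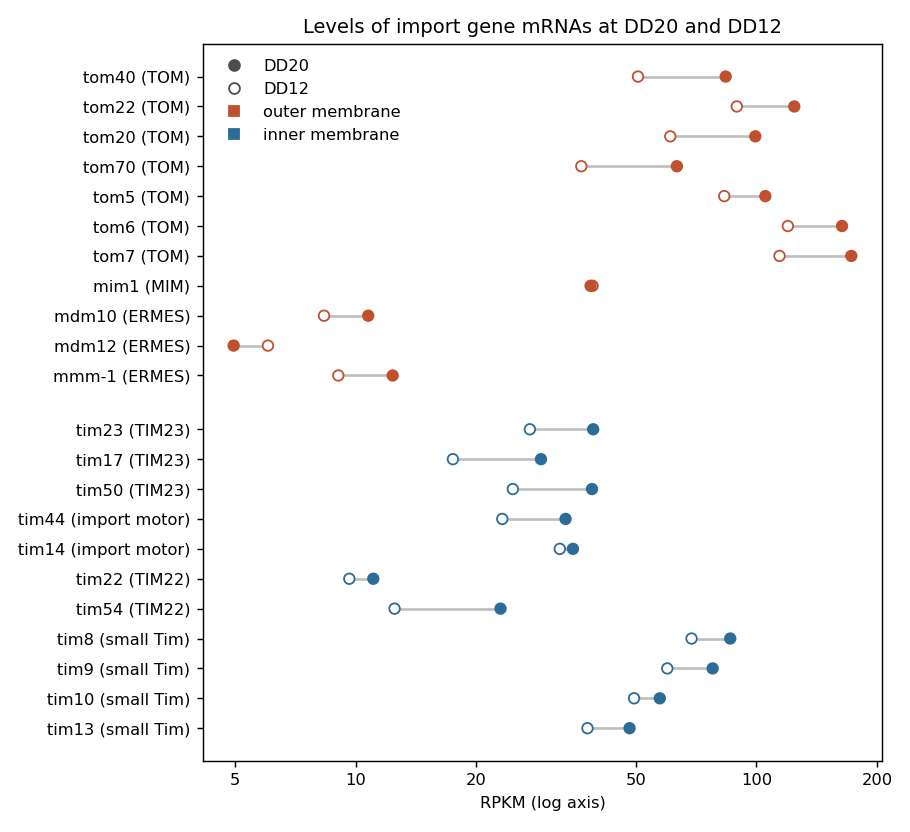
RPKM (log axis) of the 22 import genes, 1 row per gene with its complex in brackets, at DD20 (filled circles) and DD12 (open circles). Outer membrane genes are in red and inner membrane genes in blue, and the filled circle lies to the right of the open one for every gene but mim1 and mdm12.

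The entry gate of the outer membrane was higher at DD20 in each of its 7 genes, against 66.2% of all expressed genes. The channel gene tom40 had 83.8 RPKM at DD20 and 50.6 RPKM at DD12, a log2 ratio of 0.72. Among the receptors, tom70, whose product binds carrier proteins and their chaperones, had 63.3 RPKM at DD20 and 36.6 RPKM at DD12. For tom20, the receptor for presequences, the levels were 99.4 RPKM at DD20 and 60.9 RPKM at DD12. Both receptors thus had log2 ratios close to that of the channel, 0.78 for tom70 and 0.70 for tom20. The central receptor tom22, which also holds the complex together, had 124 RPKM at DD20 and 89.3 RPKM at DD12, and its log2 ratio of 0.47 was lower than that of tom40.

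The small subunits tom5, tom6 and tom7, which sit around the channel and stabilise the complex, were among its most abundant mRNAs. The level of tom7 was 172 RPKM at DD20 and 114 RPKM at DD12. The level of tom6 was 164 RPKM at DD20 and 119.8 RPKM at DD12. The level of tom5 was 105 RPKM at DD20 and 83.1 RPKM at DD12. Their log2 ratios ran from 0.34 for tom5 through 0.45 for tom6 to 0.59 for tom7, so the small subunits overlapped with tom22 and lay below the channel and the other receptors. The RefSeq entry of tom5 overlaps that of the adjacent gene NCU02473, which had 26.1 RPKM at DD20 and 21.3 RPKM at DD12.

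Set against the channel, the mix of TOM mRNAs differed between the time points. Per tom40 mRNA there were 1.95 tom6 at DD20 and 2.37 at DD12. The same figure for tom5 was 1.26 at DD20 and 1.64 at DD12, and for tom22 it was 1.48 at DD20 and 1.76 at DD12. That of tom20 was 1.19 at DD20 and 1.20 at DD12, and that of tom70 was 0.755 at DD20 and 0.722 at DD12. For tom7 it was 2.06 at DD20 and 2.26 at DD12. Relative to the channel, tom5, tom6 and tom22 were thus less abundant at DD20, while tom20 and tom70 differed little. These figures are ratios of RPKM values, which are scaled by gene length, and they do not depend on the scaling of the libraries.

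**Figure D2:**
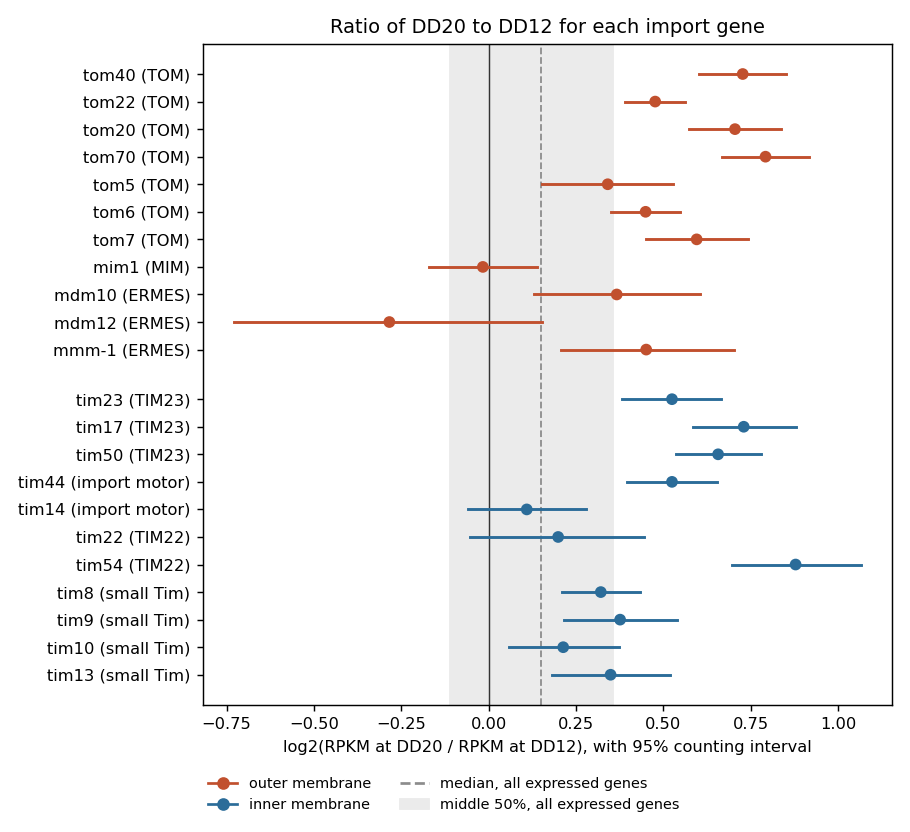
log2(RPKM at DD20/RPKM at DD12), without the added 1, for the 22 import genes (circles) with 95% counting intervals (lines). The dashed line is the median and the grey band the middle 50% of all expressed genes (log2 ratios with the added 1). The intervals of mim1, mdm12, tim14 and tim22 include 0, and those of the other 18 genes lie above it.

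The reads behind each value allow a counting interval, which covers the sampling of reads in these libraries and not the variation between cultures or RNA pools. The 95% interval (exact Clopper-Pearson, on reads divided by 2 because even read numbers prevailed, and without the added 1) was 0.60 to 0.85 for tom40, 0.67 to 0.92 for tom70 and 0.39 to 0.56 for tom22. Those of tom40 and tom22 did not overlap, nor did those of tom40 and tom5 (0.15 to 0.53 for tom5), whereas those of tom40 and tom7 did (0.45 to 0.74 for tom7). Of the 21 pairs of TOM genes, 9 had separate intervals. The interval lay above 0 for 18 of the 22 import genes, against 41.9% of the 7335 expressed genes with recovered reads. It lay below 0 for 0 of the 22, against 1283 of the 7335. Abundant genes have narrower intervals, so these counts depend on read number as well as on the ratio.

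The other outer membrane genes had lower ratios than most TOM genes. Of these 4, 2 had log2 ratios below 0, against 2505 of the 7414 expressed genes. For mim1, whose yeast counterpart inserts helical proteins into the outer membrane, the levels were 38.5 RPKM at DD20 and 39.0 RPKM at DD12, a log2 ratio of -0.016 with a counting interval of -0.17 to 0.14. Next to it in the RefSeq annotation lies oxa-1, which encodes an inner membrane insertase, with 77.2 RPKM at DD20 and 40.3 RPKM at DD12. The log2 ratio of oxa-1 was 0.92, so these neighbours, whose entries do not overlap, had quite different ratios.

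The genes mmm-1, mdm10 and mdm12 encode subunits of the ERMES complex, which tethers mitochondria to the endoplasmic reticulum. In Neurospora they were also linked to the assembly of barrel proteins. They were the least abundant of the genes counted by symbol as outer membrane genes. The level of mmm-1 was 12.4 RPKM at DD20 and 9.05 RPKM at DD12, and that of mdm10 was 10.7 RPKM at DD20 and 8.33 RPKM at DD12. Their log2 ratios were 0.41 and 0.33, with overlapping counting intervals. The last of these genes, mdm12, had 4.96 RPKM at DD20 and 6.04 RPKM at DD12, a log2 ratio of -0.24. Its interval of -0.73 to 0.15 included 0 and did not overlap that of mmm-1 (0.21 to 0.70), but it overlapped that of mdm10 (0.13 to 0.61). For mdm12 lengths of 1084 and 2168 nt both fitted, and this interval uses the shorter, with 161 reads at DD20 and 201 at DD12. The longer would give a narrower interval, so the overlap with mdm10 may rest on that choice. The value of mdm12 is uncertain because its entry overlaps that of NCU11209, which had 6.69 RPKM at DD20 and 9.66 RPKM at DD12, and because the strand handling of the counts is not given in the sources used here.

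All 11 tim genes, counted by symbol as inner membrane genes, had log2 ratios above 0, against 66.2% of all expressed genes. Of the 11, tim14 and tim22 passed below 0 with libraries rescaled without the 10 most abundant genes. The median of all expressed genes was then -0.028. The presequence translocase genes ran from 0.51 to 0.70. The channel gene tim23 had 39.1 RPKM at DD20 and 27.2 RPKM at DD12. Its partner tim17 had 29.0 RPKM at DD20 and 17.5 RPKM at DD12. The receptor gene tim50, whose product takes over proteins from the TOM complex, had 38.9 RPKM at DD20 and 24.7 RPKM at DD12. The 3 genes thus differed little among themselves, with log2 ratios of 0.51 for tim23, 0.70 for tim17 and 0.64 for tim50, and the counting intervals of tim17 and tim23 overlapped. The entry of tim17 overlaps that of NCU05624, which was low, with 1.11 RPKM at DD20 and 0.912 RPKM at DD12.

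The genes of the import motor differed in their ratios. The level of tim44, which anchors the matrix Hsp70 chaperone at the channel, was 33.4 RPKM at DD20 and 23.2 RPKM at DD12, a log2 ratio of 0.51. That of tim14, the J protein that stimulates this chaperone, was 34.8 RPKM at DD20 and 32.3 RPKM at DD12, a log2 ratio of 0.11 that was -0.043 when ratios were centred on the all-gene median. The interval of tim14, -0.058 to 0.28, included 0 and lay below that of tim44, 0.40 to 0.65. In Neurospora the partner of Tim14 is encoded by un-4, which RefSeq gives the synonym tim16. As its symbol is un-4 it fell outside the rule, and it had 32.3 RPKM at DD20 and 24.7 RPKM at DD12, a log2 ratio of 0.37.

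The subunits of the carrier translocase also differed. The channel gene tim22 had 11.1 RPKM at DD20 and 9.64 RPKM at DD12, a log2 ratio of 0.18 whose interval of -0.053 to 0.45 included 0. The gene tim54, whose yeast counterpart is a TIM22 subunit exposed to the intermembrane space, had 23.0 RPKM at DD20 and 12.5 RPKM at DD12. Its log2 ratio of 0.83 was the highest of the 22 and above that of 97.7% of all expressed genes, and its interval, 0.70 to 1.07, did not overlap that of tim22. In RPKM there was thus 1.15 times as much tim22 at DD20 as at DD12, against 1.84 times as much tim54.

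The small Tim chaperones, which escort carrier and barrel proteins across the intermembrane space, had similar and modest ratios. The level of tim9 was 77.8 RPKM at DD20 and 59.9 RPKM at DD12, and that of its partner tim10 was 57.4 RPKM at DD20 and 49.5 RPKM at DD12. In the other pair, tim8 had 86.0 RPKM at DD20 and 68.9 RPKM at DD12, and tim13 had 48.2 RPKM at DD20 and 37.9 RPKM at DD12. Their log2 ratios were 0.37 for tim9, 0.21 for tim10, 0.32 for tim8 and 0.34 for tim13, and the intervals within each pair overlapped. In RPKM there were 1.36 tim9 per tim10 at DD20 and 1.21 at DD12, and there were 1.78 tim8 per tim13 at DD20 and 1.82 at DD12. The value of tim8 carries a limit, since its entry overlaps that of NCU06226, a far more abundant gene with 1487 RPKM at DD20 and 911 RPKM at DD12. In all, the entries of 10 of the 22 members overlap an adjacent gene, and no member lies next to another member (0 cases).

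Outer and inner membrane genes, assigned by symbol, were compared next. The inner side includes the 4 small Tim genes, whose products act in the intermembrane space. The median log2 ratio was 0.45 over the 11 outer membrane genes (-0.24 to 0.78) and 0.37 over the 11 inner membrane genes (0.11 to 0.83), a difference of 0.075. The ranges overlapped, except that mim1 and mdm12 of the outer membrane lay below every inner membrane gene and tim54 above every outer membrane gene. Higher at DD20 by 1.5-fold or more were 4 of the 11 outer and 3 of the 11 inner membrane genes, against 8.40% of all expressed genes. As given above, fewer passed this limit with other scalings of the libraries. The spread lay within each side. In the outer membrane the median was 0.59 over the 7 TOM genes and 0.16 over the other 4, and in the inner membrane it was 0.51 over the 7 translocase and motor genes and 0.33 over the 4 small Tim genes. In level, the outer membrane genes had a median of 83.8 RPKM at DD20 and 50.6 RPKM at DD12, and the inner membrane genes 38.9 RPKM at DD20 and 27.2 RPKM at DD12. The order of the 22 levels was nearly the same at both time points (Spearman's rho 0.97 across genes, which are not replicates and share the libraries), with tom7, tom6 and tom22 highest and mdm12 lowest.

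Among the TOM genes the ratios went with gene length. The longest RefSeq entries, those of tom70 (3234 nt, introns included) and tom40 (2650 nt), went with the highest TOM ratios, and the shortest, tom5 (908 nt), with the lowest. Spearman's rho between entry length and log2 ratio was 0.96 over the 7 TOM genes, 0.50 over the 11 inner membrane genes, 0.31 over the 11 outer membrane genes, 0.43 over all 22 and 0.15 over 7383 expressed genes. Within the TOM genes the ratio also went with level, with a rho of -0.75 between RPKM at DD12 and log2 ratio. These are descriptions across genes of the same pair of libraries. The part of RNA quality or of library size selection in the relation was not tested. Among all genes with a unique recovered length (members with several were placed by the longest), the median log2 ratio was 0.057 under 1000 nt (434 genes), 0.11 from 1000 to below 2000 nt (2172 genes) and 0.15 from 2000 to 3000 nt (1761 genes), against 0.34, 0.44 and 0.64 for the 5, 10 and 7 import genes of these lengths. All 5 of the short, 8 of the 10 middle and 6 of the 7 long import genes lay above the median of their length class.

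**Figure D3:**
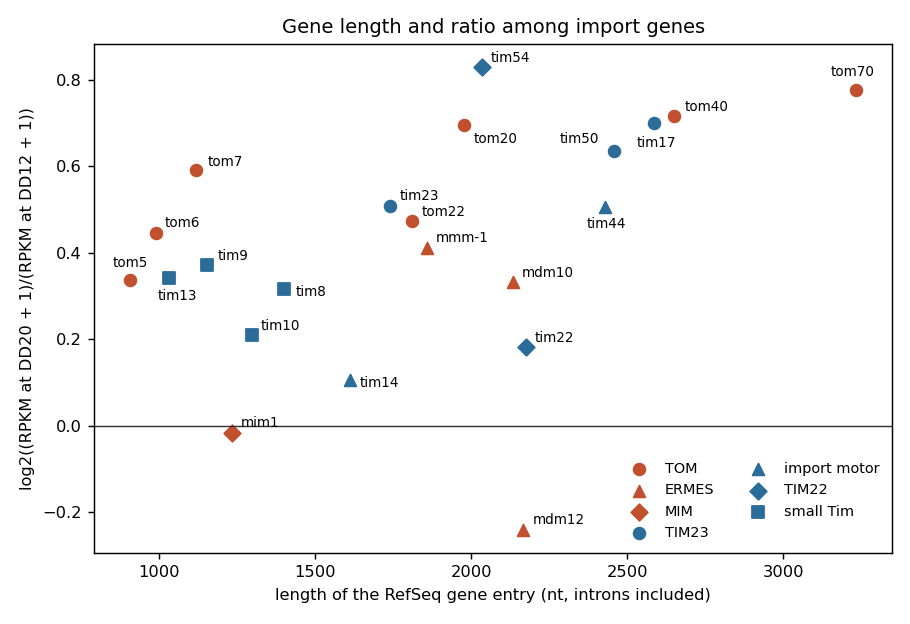
Log2 ratio (with the added 1) against the length of the RefSeq gene entry in nt for the 22 import genes, outer membrane in red and inner membrane in blue, with symbols for the complexes. The 7 TOM genes (red circles) run from tom5 at the lower left to tom70 at the upper right, and mim1 and mdm12 lie below 0.

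Genes were also grouped by level. Genes with a mean RPKM from 50 to below 200 had a median log2 ratio of 0.21 over 760 genes, and all 9 import genes in that class (median 0.45) lay above it. From 10 to below 50 RPKM the median was 0.17 over 3066 genes, and 9 of 11 import genes (median 0.51) lay above it. From 1 to below 10 RPKM, where mdm10 and mdm12 fell, the median was 0.11 over 3287 genes, and mdm10 lay above it and mdm12 below.

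Other genes of the pathway were taken from a list of import and assembly genes by symbol, of which 11 were found in the table. Of these, 10 had log2 ratios above 0 and 6 reached 1.5-fold on the DD20 side, with a median of 0.60, against 66.2% above 0 and 8.40% past 1.5-fold among all expressed genes. For the SAM (TOB) complex, the barrel channel tob55 had 33.4 RPKM at DD20 and 26.2 RPKM at DD12, and tob38 had 16.0 RPKM at DD20 and 9.24 RPKM at DD12. The third subunit, tob37, was the 1 gene below 0, with 12.9 RPKM at DD20 and 13.7 RPKM at DD12. As in TIM22, and in ERMES with its uncertain value for mdm12, genes of 1 complex thus had unequal ratios. These were 0.34 for tob55, 0.73 for tob38 and -0.081 for tob37. Their counting intervals were 0.21 to 0.49 for tob55, 0.54 to 1.03 for tob38 and -0.38 to 0.20 for tob37. That of tob37 included 0 and only just missed that of tob55.

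In the matrix, the presequence is cut off by the peptidase that mpp and pep encode. The level of mpp was 36.6 RPKM at DD20 and 25.1 RPKM at DD12. The level of pep, whose product in Neurospora is also a core subunit of respiratory complex III, was 571 RPKM at DD20 and 389 RPKM at DD12. Their log2 ratios, 0.53 and 0.55, were nearly equal although pep was far more abundant. The chaperonin gene hsp60, whose product folds imported proteins, had 107 RPKM at DD20 and 63.8 RPKM at DD12, and hsp70-5, an Hsp70 chaperone gene, had 255 RPKM at DD20 and 142 RPKM at DD12. Their log2 ratios were 0.73 and 0.84. The insertase oxa-1 was the highest of the list (0.92), with its relative oxa-2 at 0.60 and cyt-2, for the lyase that attaches heme to imported cytochrome c, at 0.67. The most abundant gene of the list was por, for porin, an import substrate of the outer membrane, with 879 RPKM at DD20 and 683 RPKM at DD12 and a log2 ratio of 0.36.

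**Figure D4:**
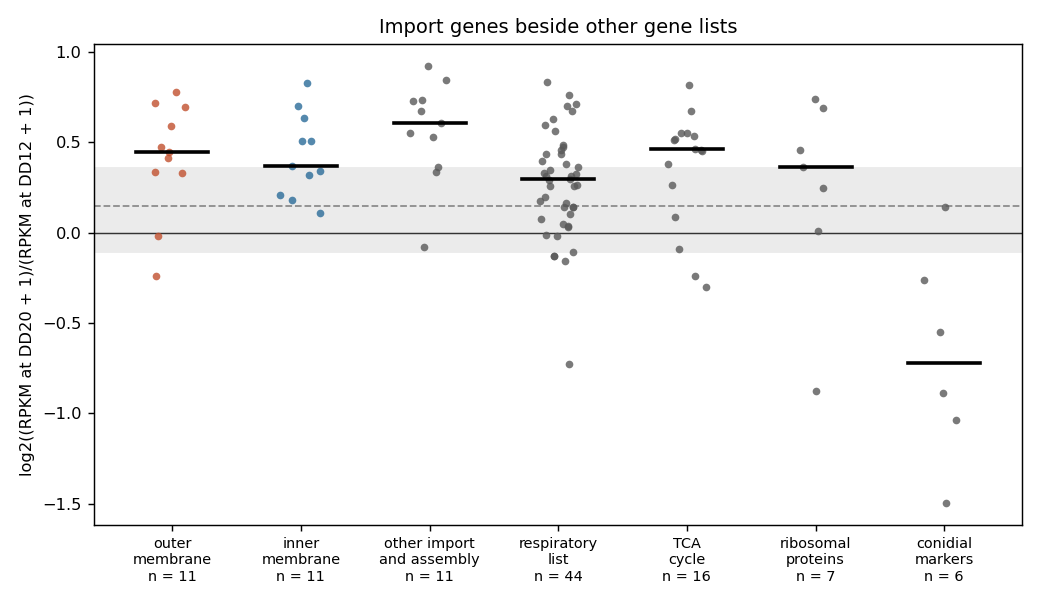
Log2 ratios (with the added 1) of single genes (points) in 7 gene lists, with list medians (black bars), the median of all expressed genes (dashed line) and their middle 50% (grey band). The medians of the outer membrane, inner membrane and other import genes are 0.45, 0.37 and 0.60, and the conidial markers lie lowest.

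Beside these, many genes for imported proteins had ratios above 0 too. The respiratory list of 44 genes had a median log2 ratio of 0.30, with 37 genes (84.1%) above 0 and 7 (15.9%) higher by 1.5-fold or more, against 66.2% and 8.40% of all expressed genes. Of its members, the 29 nuo genes, which encode subunits of complex I, had a median of 0.26 and reached at most 0.59 (nuo20.9), with 1 past 1.5-fold in each direction, against 8.40% higher and 6.66% lower among all expressed genes. The list also holds 9 cyt genes, several of which act in mitochondrial RNA processing or translation rather than in the chain. Their median was 0.56. Among them, cyt-2 is also counted in the list of import and assembly genes above. The whole respiratory list ran from -0.73 for nuo21.3a to 0.83 for cyt-19. The 16 tricarboxylic acid cycle genes had a median of 0.46, from -0.30 for tca-17 to 0.82 for tca-4. The 7 cytoplasmic ribosomal protein genes found by symbol had a median of 0.36, from -0.88 for crp-2 to 0.74 for crp-5. The medians of the import genes thus lay among those of other mitochondrial lists, and no list was tested against another.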

How the data were processed

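The authors deposited RPKM values, 1 column each for WT at DD20 and DD12. The submitters' processing notes name CASAVA 1.8 and HISAT, and the counting method, strand handling and genome build are not given in the sources used here. Samples were grouped by their labels, and the members and gene lists were chosen with earlier results of these data known. All genes of the symbol rule were named, and from the lists those acting on imported proteins and the highest and lowest.

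Scripts ran under Python 3.11.15. Tables were handled with pandas 2.3.3 and numpy 2.4.6. Intervals used scipy 1.17.1, and figures matplotlib 3.10.9. Library totals were found as the totals at which genes whose model fills their RefSeq entry (assembly NC12, 10526 genes matched) give whole reads, and gene lengths as those giving whole reads in both columns within 0.003 reads. The length was unique for 15 of the 22 members. For the other 7 the shortest of at least 300 nt was used, which gives the widest interval. Genes with 1 to 10 reads had even numbers in 60.4% of 144 cases at DD20 and 65.4% of 130 at DD12. RefSeq coordinates are not reported, as the build of the table is not named. With 1 column per time point no test was run and no count model was fitted. The steps were tested on simulated data. Other pseudocounts, scalings and filters were tried. Protein features planned for the members were not analysed here.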

Additional observations from a re-analysis of the deposited data

How the results depend on the processing

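No paired analysis was possible because DD20 and DD12 have 1 column each, which also allows no leaving out of a replicate. The count of 7 import genes higher at DD20 by 1.5-fold or more was 2 with centred ratios and 1 with libraries rescaled without the 10 most abundant genes, and 0 at a fold of 2, a limit chosen after seeing the data. It was 5 with a pseudocount of 5, under which tom7 and tim50 missed the limit. For these scalings and this pseudocount, the share of all expressed genes past 1.5-fold is not given. With that rescaling the median log2 ratio was 0.25 for the outer and 0.17 for the inner membrane genes, and that of all expressed genes was -0.028, so that 19 of the 22 import genes still lay above it. The sign changed for tim14 (-0.043 with centred ratios, -0.090 with rescaled libraries) and tim22 (-0.0022 with rescaled libraries). Pseudocounts of 0.1 and 5 each moved 0 of the 22 single ratios beyond their counting error. Centred ratios moved 11 of the 22, and libraries rescaled without the 10 most abundant genes moved 18. The difference between the outer and inner medians ran from 0.073 to 0.10 over the settings tried, including those without mim1 and with TOM against translocase and motor genes, both added after seeing the data. Centring and rescaling shift all genes by nearly 1 amount, and which scaling is right was not tested.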
